A study of Mus musculus with 9 samples.

Results

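Ribosomal protein genes encode the proteins of the cytosolic ribosome, and their messenger RNAs are among the most abundant in a cell. They were taken here as the names beginning with Rpl or Rps and a number, together with Rplp0, Rplp1, Rplp2 and Rpsa. Names with a copy suffix, pseudogene names and the Rps6k kinases were left out. This gave 85 of the 42454 gene names, 52 of the large and 33 of the small subunit, and 83 of them passed the filter on low counts. The rule also leaves out genes such as Fau and Rack1, which encode ribosomal proteins under other names, so these are described apart.

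MC38, a line of mouse colorectal carcinoma, was implanted in C57BL/6J animals, and tumours were collected at day 21. The line either carried an empty vector (Vec, genotype labelled WT, 4 tumours) or lacked CD43 through a knockout (CD43-KO, genotype labelled CD43 KO, 5 tumours). CD43 is a sialylated membrane glycoprotein, encoded by Spn and found mostly on leukocytes. It was targeted in the implanted cells, so host cells in both groups kept the gene, and the labels do not say whether 1 or more knockout clones were used. Each library came from whole tumour tissue. A lower level of a transcript through fewer cells of a type cannot be told apart from less RNA per cell. The labels give separate tumours but no batch or pairing, so p-values set the group difference against the spread between these tumours.

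In a ribosome the small subunit reads the messenger RNA and the large subunit joins amino acids and passes the chain through an exit tunnel. Cells make the proteins of both subunits in matched amounts. Their messenger RNAs carry a run of pyrimidines at the extreme 5′ end, through which mTOR signalling and the RNA-binding protein Larp1 govern their translation and stability, while Myc raises their transcription in many tumours.

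The start sites of some members are shown because that pyrimidine run is the sequence they share. RefSeq (GRCm38.p6) gave 76 start-site windows for 64 of the 85 members. In 20 windows a run of at least 6 pyrimidines began within 5 bases of the annotated start, and the 8 longest are printed 5′ to 3′ on the gene's strand, from 10 bases before to 20 bases from the start. Capitals mark the pyrimidine run. They lie at chr7:109519185-109519214 (plus strand, Rpl27a), chr14:18270967-18270996 (minus, Rpl15), chr7:45128726-45128755 (minus, Rpl13a), chr16:33056472-33056501 (plus, Rpl35a), chr7:4792955-4792984 (plus, Rpl28), chr7:45718061-45718090 (plus, Rpl18), chr3:28805498-28805527 (plus, Rpl22l1) and chr11:114668570-114668599 (plus, Rpl38).
Rpl27a: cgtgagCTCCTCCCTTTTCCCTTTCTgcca
Rpl15: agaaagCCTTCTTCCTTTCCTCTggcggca
Rpl13a: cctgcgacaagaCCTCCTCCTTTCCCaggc
Rpl35a: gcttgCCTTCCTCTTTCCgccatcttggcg
Rpl28: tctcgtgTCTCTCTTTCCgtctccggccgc
Rpl18: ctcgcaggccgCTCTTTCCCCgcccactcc
Rpl22l1: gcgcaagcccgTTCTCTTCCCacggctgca
Rpl38: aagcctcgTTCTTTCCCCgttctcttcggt
Of the runs printed, the longest, in Rpl27a, had 20 bases and the shortest had 10. A run of 8 or more pyrimidines on the gene's strand within 50 bases of the start was found in 59 of the 76 member windows (77.6%), against 35.7% of all 32851 windows of the table. Over the whole window of 300 bases and on both strands, CCGGAAG, the core of the ETS factor motif, was in 27 member windows (35.5%) and in 8.86% of all windows. The motif AAGATGGC, that of Yy1, was in 8 member windows (10.5%) against 2.75% of all. The Myc motif CACGTG was in 8 (10.5%) against 7.15%, and TATAAA in 8 (10.5%) against 13.6%. Searched motifs of different letters could overlap, and windows of 1 gene share sequence.

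Depth was 60751738 to 72114385 counts per Vec library and 44814061 to 62194418 per CD43-KO library. Vec tumours had 45.8 ± 5.56 CPM (SD, n = 4) of the targeted gene, Spn, and CD43-KO tumours 24.0 ± 10.5 (SD, n = 5). The library CD43-KO 3 had the lowest total and had a first principal component score of 100.02 (this component took 34.9% of variance), with the others between -45.6 and 51.2. Its summed level was 1768 CPM over 14 skeletal muscle markers, against 176 to 254 in the other tumours, and 761 over 10 fat markers, against 32.6 to 83.5. Leukocyte markers (8 genes) summed to 2163, 2678, 3995 and 2488 CPM in Vec 1 to 4 and to 4392, 5237, 8469, 2109 and 3493 in CD43-KO 1 to 5, so that CD43-KO 1, 2 and 3 exceeded every Vec tumour. The median log2 fold change of the 7 leukocyte markers tested was 0.77. Of these, 7 of 7 were above 0, where 46% of all genes were below 0. At an unadjusted edgeR p under 0.05, 3 were higher (7.75% of all genes). Their median difference from the Vec mean was 1.41 in CD43-KO 3 and 0.41 in the other 4 knockout tumours. Fibroblast and endothelial markers summed to 1416 to 1607 CPM in Vec tumours and to 2123, 3327, 1945, 1333 and 1117 in CD43-KO 1 to 5. Of 8 carcinoma markers the epithelial Cdx2 was at 0 in every library and Krt8, Krt18 and Vil1 did not pass the filter. Vim made up nearly all of that list's sum, which was 3704 to 4906 CPM in Vec and 2772 to 3849 in CD43-KO tumours. Proliferation markers summed to 2172 ± 175 CPM in Vec and 2379 ± 153 in CD43-KO tumours. Values that rest on CD43-KO 3 are given with and without it, and the part of these markers in the results was not tested.

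Ribosomal protein transcripts took a smaller share of most CD43-KO libraries. The 85 members together held 13.5%, 12.6%, 14.2% and 16.1% of the counts in Vec 1 to 4, and 10.3%, 10.7%, 13.5%, 11.6% and 11.4% in CD43-KO 1 to 5. Of the knockout tumours, CD43-KO 3 alone lay inside the Vec range, and the other 4 were below every Vec tumour. The means were 14.1% ± 1.50 (SD, n = 4) and 11.5% ± 1.24 (SD, n = 5), and 11.0% ± 0.583 over the 4 knockout tumours other than CD43-KO 3. Counting error was at most 0.0100 percentage points either side of a share (Wilson interval, 95%), far under the spread between tumours. On the TMM-scaled CPM scale the knockout sum was 76.9% of the Vec sum, and 72.1% without CD43-KO 3. The sum with no composition scaling, over total counts alone, was 81.8% of Vec.

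The large subunit members summed to 79277, 72646, 84653 and 105057 CPM in Vec 1 to 4 and to 57841, 61029, 83804, 66960.4 and 64832 in CD43-KO 1 to 5. The small subunit members summed to 56804, 52097, 59186 and 75592 CPM in Vec tumours and to 39169, 41664, 57055, 46071 and 44249.6 in CD43-KO tumours. In both subunits Vec 4 was the highest tumour and CD43-KO 1 the lowest. The lowest sums were those of CD43-KO 1 and 2, whose leukocyte and fibroblast or endothelial markers lay above every Vec tumour. Both marker sums of CD43-KO 3 lay above every Vec tumour as well, and it had the highest subunit sums of the knockout tumours. In CD43-KO 4 and 5 neither marker sum exceeded the Vec range, and both subunit sums were below every Vec tumour. The part of these cells in the sums was not tested. Knockout sums were 78.3% of Vec for the large and 74.9% for the small subunit.

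The balance between the subunits separated the groups more cleanly than either sum. Summed large over summed small subunit CPM was 1.396, 1.394, 1.430 and 1.390 in Vec 1 to 4 and 1.477, 1.465, 1.469, 1.453 and 1.465 in CD43-KO 1 to 5. Every knockout tumour, CD43-KO 3 included, lay above every Vec tumour, with Vec 3 the nearest to them. The mean ratio was 1.40 ± 0.0187 (SD, n = 4) in Vec and 1.466 ± 0.00841 (SD, n = 5) in CD43-KO, a difference of 0.063, and scaling factors cancel in it. When each member counted equally, the mean log2 level of the large minus that of the small subunit was -0.10, -0.12, -0.09 and -0.15 in Vec 1 to 4, and -0.03, -0.03, -0.05, -0.05 and -0.06 in CD43-KO 1 to 5, again without overlap. The ratio is a description of the chosen members and has no test.

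**Figure D1:**
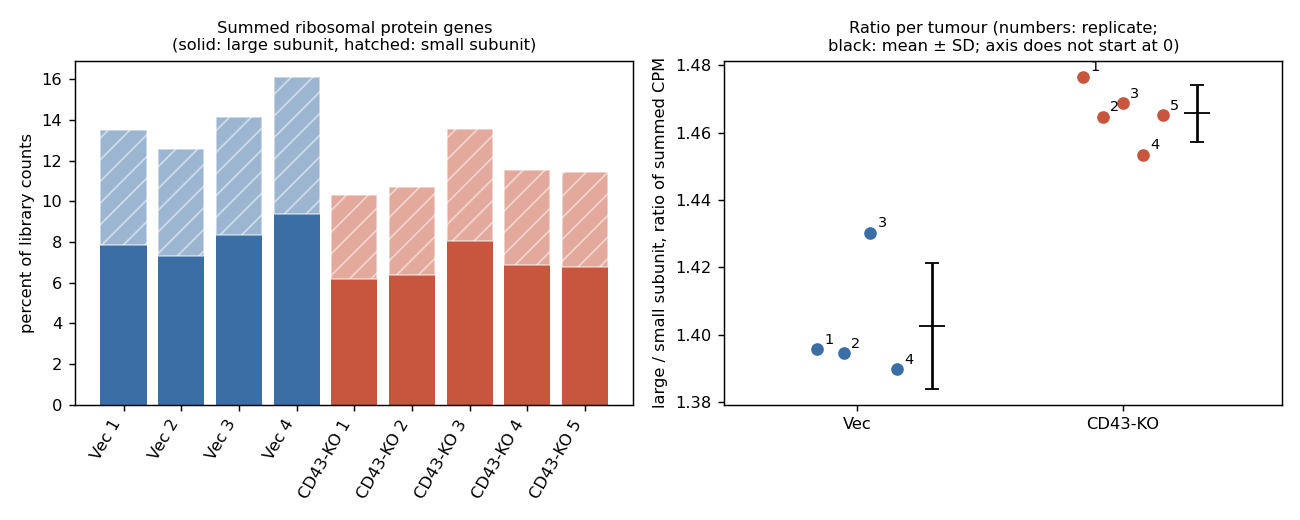
Percent of library counts held by the large and by the small subunit members, stacked, in each of 4 Vec and 5 CD43-KO tumours. Beside it is the ratio of their summed TMM-scaled CPM in each tumour, with the group mean and SD of the ratio. Knockout tumours other than CD43-KO 3 lie below the Vec tumours in both percentages, and all 5 lie above them in the ratio (1.453 to 1.477 against 1.390 to 1.430).

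The direction was shared by most members, but no single gene passed the main test. With edgeR's quasi-likelihood test and Benjamini-Hochberg adjustment over all 18243 genes, 0 of 83 members had an adjusted p under 0.05, where percent called over all genes was also 0%. The smallest adjusted p of a member was 0.180. At an unadjusted p under 0.05, 46 of 83 members were lower in CD43-KO tumours, against a background of 7.63% of all genes, and 1 was higher, against 7.75%. These were 26 of 50 large and 20 of 33 small subunit members. The log2 fold change of CD43-KO over Vec was below 0 for 76 of 83 members, against 46% of all genes. Its median was -0.36 over the members, -0.34 over the large and -0.39 over the small subunit, and 0.03 over all genes tested.

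Other tools put a minority of the members past the adjusted threshold. DESeq2 called 18 members lower in the knockout tumours, against 2.02% of all genes, and limma voom with sample weights called 18, against 2.04%. Both called 14 of them, and 22 were called by either. DESeq2 called 0 members higher, against 1.36% of all genes, and voom 0, against 1.04%. DESeq2 gave 1 member no adjusted p. In 18 members every CD43-KO tumour lay below every Vec tumour, against 3.5% of all genes, and in 0 every knockout tumour lay above, against 2.08%. The 18 included Rpl3, Rpl4, Rpl5, Rpl10, Rpl12, Rpl13, Rpl13a, Rpl28, Rplp0, Rps3, Rps4x, Rps6, Rps14, Rps16 and Rpsa, and DESeq2 called 14 of the 18. The number depended on 1 library, since without CD43-KO 3 it was 57, against 7.58% of all genes. The number with an unadjusted p under 0.05 and lower in the knockout was then 69, against 10.6%, and it was 31 without Vec 4, against 5.54%.

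Members varied together from tumour to tumour, within groups as well as between them. Over the 80 members with a mean of at least 10 CPM, the median Pearson correlation of a pair across the 9 tumours was 0.87, given as a description because the members share library and scaling. Vec 4 was the highest tumour for 57 of the 80 and CD43-KO 3 for 18. CD43-KO 1 was the lowest for 60 and CD43-KO 2 for 14. CD43-KO 1 lay below every Vec tumour in 73 members, CD43-KO 2 in 72, CD43-KO 4 in 64, CD43-KO 5 in 63 and CD43-KO 3 in 19. Within Vec tumours the coefficient of variation had a median of 18.3% and ran from 7.30% (Rpl4) to 29.4% (Rps15).

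**Figure D2:**
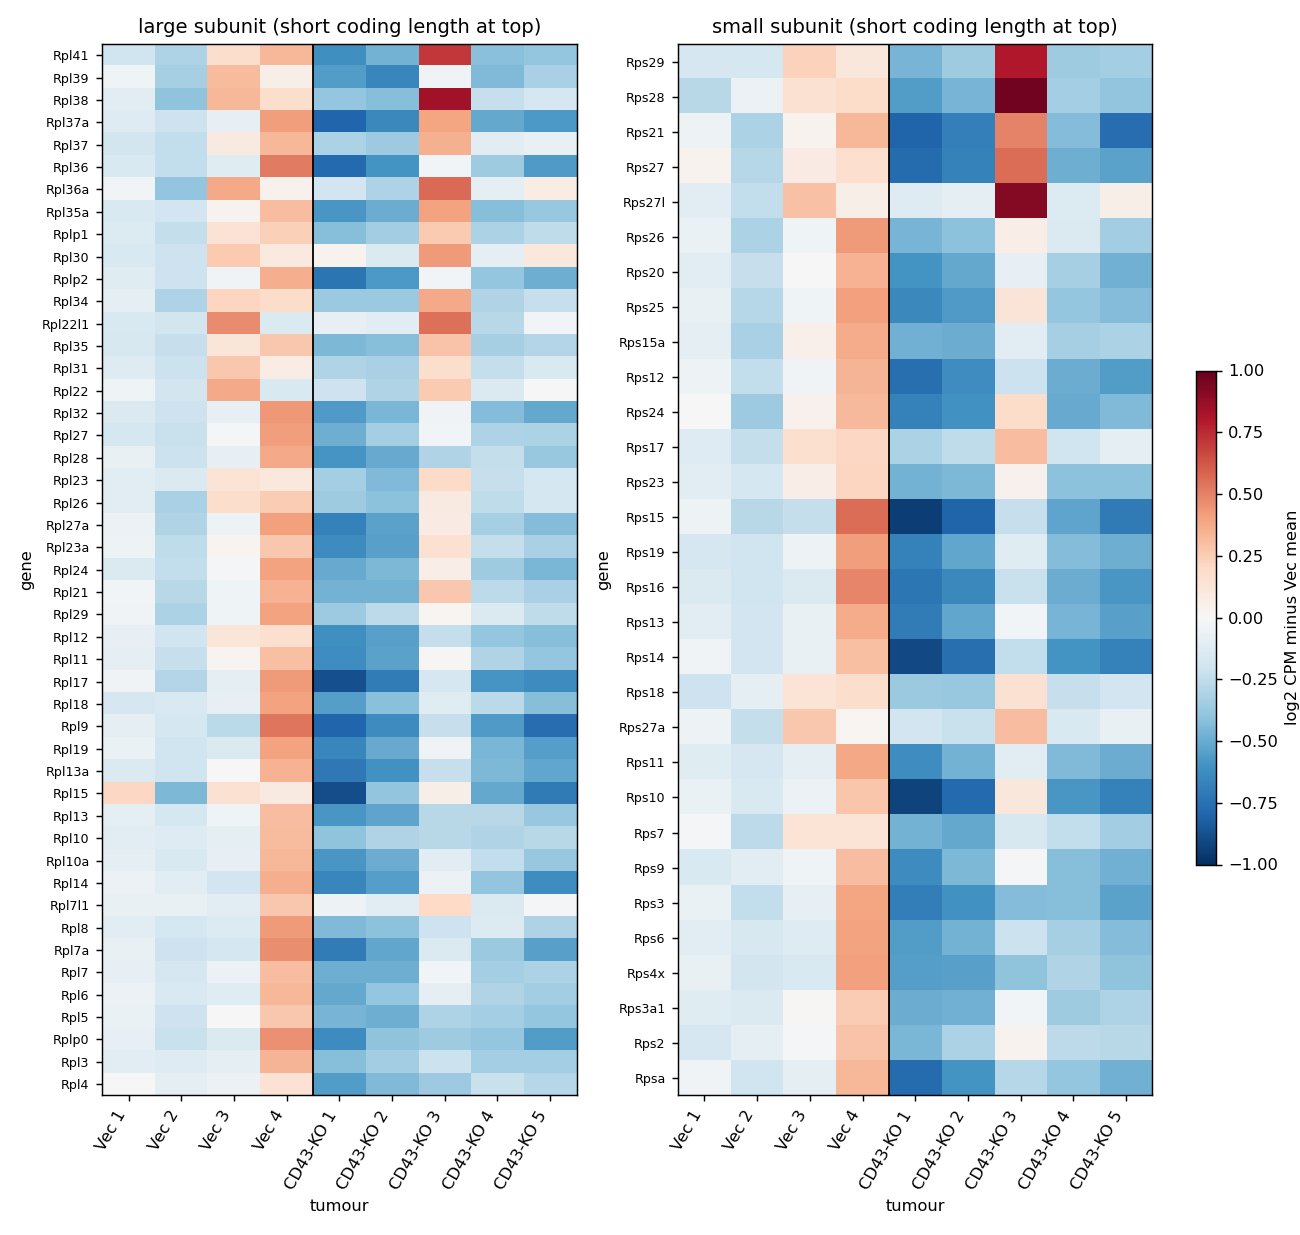
Log2 level of expressed members in each of the 9 tumours relative to the Vec mean of the gene, ordered by coding length within each subunit. CD43-KO 1, 2, 4 and 5 are below the Vec mean along nearly the whole column, whereas CD43-KO 3 is above it in the shortest genes and below it in the longest.

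Among the small subunit members, Rps3, which lines the entry of the messenger RNA channel, had the smallest p after Rps14. Rps3 (chr7:99477896-99483709) was at 4124, 3633, 4085 and 5683 CPM in Vec 1 to 4 and at 2668, 2837, 3201, 3218 and 2981 in CD43-KO 1 to 5. The groups did not overlap, and Vec 4 stood above the other Vec tumours. The means were 4381 ± 896 and 2981 ± 236 CPM, with a log2 fold change of -0.56 ± 0.14 (SE). Its edgeR adjusted p was 0.191 and its DESeq2 adjusted p 0.0113, and a two-sided exact permutation test gave 0.00794, the smallest p that 126 splits allow.

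Rps14, a protein of the platform whose reduced dose in human marrow causes an anaemia, was at 3915, 3521, 3826 and 4952 CPM in Vec 1 to 4 and at 2150.2, 2389, 3379.9, 2655 and 2512 in CD43-KO 1 to 5. CD43-KO 3 was just under the lowest Vec tumour and the other knockout tumours well under it. The log2 fold change was -0.63 ± 0.15 (SE), with an adjusted p of 0.180 in edgeR and 0.00725 in DESeq2. Rps15, whose tail reaches the decoding site, had the largest negative log2 fold change of the members, -0.66 ± 0.20 (SE). It was at 1879, 1601, 1649.9 and 2861 CPM in Vec tumours and at 1010.2, 1114, 1654, 1346 and 1190.0 in CD43-KO tumours. Here CD43-KO 3 lay above Vec 2 and 3, so the groups overlapped, and the adjusted p was 0.217 in edgeR and 0.0424 in DESeq2.

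Rpsa, also known as the laminin receptor, was at 3558, 3169.7, 3408 and 4591 CPM in Vec 1 to 4 and at 2143, 2415, 2993, 2782 and 2618 in CD43-KO 1 to 5. No knockout tumour reached the lowest Vec tumour. Its log2 fold change was -0.51 ± 0.14 (SE), with an adjusted p of 0.197 in edgeR and 0.0250 in DESeq2. Rps12 had means of 3171 ± 563 and 2192 ± 319 CPM, and CD43-KO 3, at 2707, was above Vec 2, at 2637. Rps2 had means of 4276 ± 618 and 3577 ± 468 CPM and a log2 fold change of -0.26 ± 0.13 (SE, edgeR adjusted p = 0.374).

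Of the large subunit members, Rpl4, whose loop lines the exit tunnel, had the smallest Vec spread. Rpl4 (chr9:64173387-64178562) was at 2935, 2762, 2817 and 3242 CPM in Vec 1 to 4 and at 1997, 2164, 2281, 2509.9 and 2402 in CD43-KO 1 to 5. All knockout tumours were below all Vec tumours, and CD43-KO 3 was the middle one of its group. The log2 fold change was -0.37 ± 0.10 (SE), with an adjusted p of 0.196 in edgeR and 0.0138 in DESeq2.

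Rpl5, which with Rpl11 and a ribosomal RNA forms a particle that can bind Mdm2, was at 2357, 2136, 2472 and 2973 CPM in Vec 1 to 4 and at 1789, 1753, 1992, 1948 and 1883 in CD43-KO 1 to 5. The knockout tumours lay close together and all under Vec 2, the lowest Vec tumour. Its log2 fold change was -0.41 ± 0.11 (SE, edgeR adjusted p = 0.196). Rpl13a, also a part of a complex that represses inflammatory messenger RNAs, had means of 5293 ± 954 and 3719 ± 485. Its groups did not overlap, although CD43-KO 3, at 4469.8, came close to Vec 2, at 4548.

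Rpl12, at the base of the stalk, had means of 2791 ± 325 and 2053 ± 208 CPM without overlap, with a log2 fold change of -0.44 ± 0.12 (SE). Rpl13 had means of 3143 ± 496 and 2355 ± 228 CPM, again without overlap. Rpl8, next to the catalytic centre, did overlap, since CD43-KO 4, at 2718, exceeded Vec 2, at 2646. Its log2 fold change was -0.32 ± 0.14 (SE, edgeR adjusted p = 0.320). Rpl9 and Rpl17, the latter at the tunnel exit, had the largest negative log2 fold changes of the large subunit, -0.62 ± 0.18 and -0.60 ± 0.18 (SE), but in both CD43-KO 3 lay inside the Vec range.

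The stalk proteins recruit the elongation factors to the large subunit and are present as Rplp0 with copies of Rplp1 and Rplp2. Rplp0 was at 3809, 3455, 3641 and 5535 CPM in Vec 1 to 4 and at 2611, 3056, 3151, 3094 and 2744 in CD43-KO 1 to 5. The groups did not overlap, and Vec 4 was far above the rest. Its log2 fold change was -0.49 ± 0.15 (SE, edgeR adjusted p = 0.222). Rplp2 had means of 1462 ± 271 and 1079 ± 208 CPM and a log2 fold change of -0.44 ± 0.16 (SE). Rplp1 was at 2349, 2189.9, 2853 and 3046 CPM in Vec tumours and at 1922, 2035, 3093, 2081 and 2165 in CD43-KO tumours. CD43-KO 3 was the highest of all 9 tumours and the other 4 knockout tumours were below every Vec tumour. For Rplp1 the log2 fold change was -0.21 ± 0.16 (SE, edgeR adjusted p = 0.548).

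**Figure D3:**
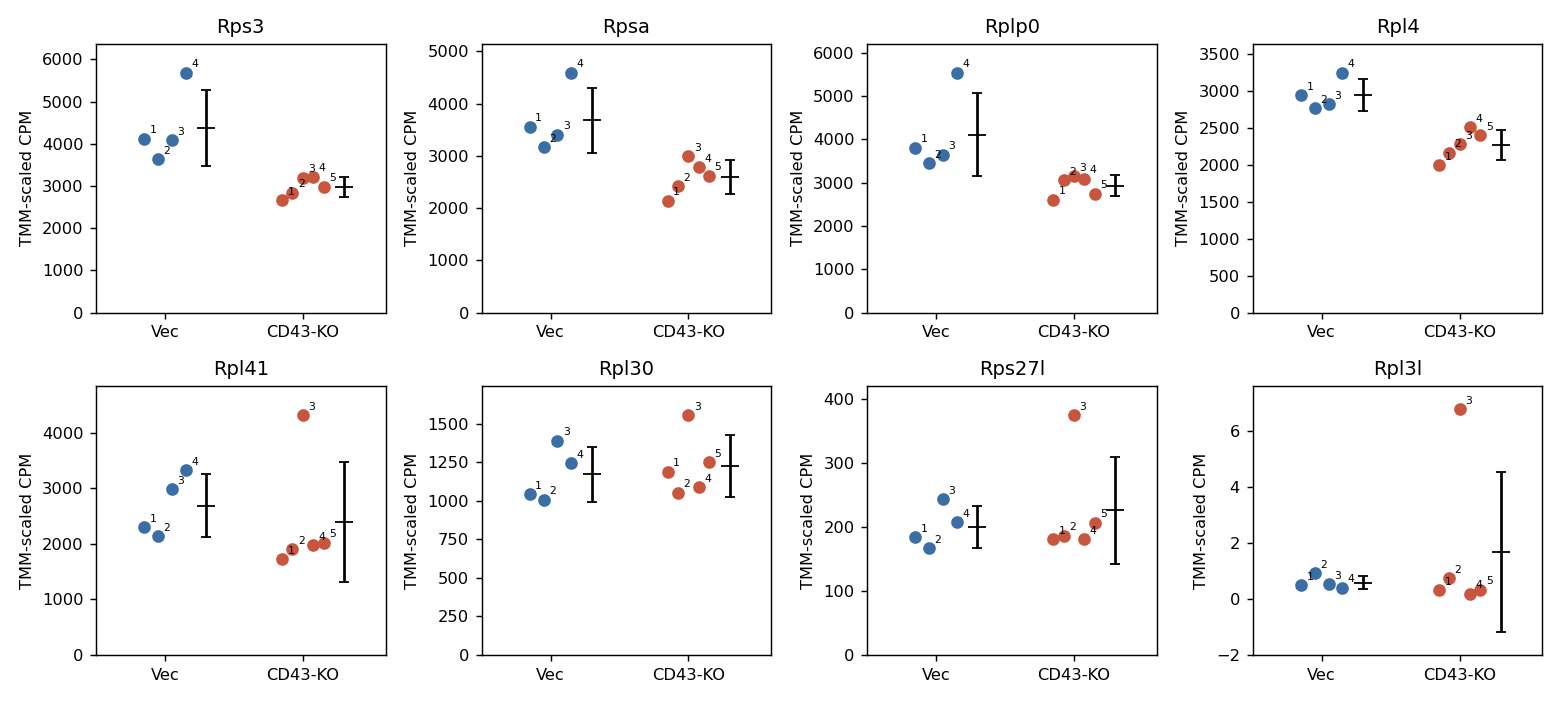
TMM-scaled CPM of single members in each of the 9 tumours, with the group mean and SD. CD43-KO 3 lies with its group in Rps3 and Rpl4, and above it in short members such as Rpl41.

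The position of CD43-KO 3 varied with the length of the gene. Across 82 tested members with a coding length, the Spearman correlation of coding length with the log2 difference of CD43-KO 3 from the Vec mean was -0.64, and it was -0.15 for the mean of the other 4 knockout tumours. The 11 tested members of at most 300 coding bases had a median difference of 0.71 in CD43-KO 3 and of -0.44 in the other 4. The 24 members of over 600 coding bases had medians of -0.21 and -0.45. Over the 5 length classes that hold members, the medians of the other 4 tumours stayed between -0.42 and -0.48.

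In CD43-KO 3 the same tilt was seen outside the members. Other genes of at most 300 coding bases had a median of 0.39 in CD43-KO 3 (n = 314) and those of over 3000 bases of -0.14 (n = 1897). In the other 4 knockout tumours the tilt of these genes was the reverse, with medians of -0.17 and 0.23. In the class from 300 to 450 bases, the 28 members had a median of 0.09 in CD43-KO 3 and -0.42 in the other 4. There, 671 other genes had 0.31 and -0.15. In the class from 600 to 900 bases, the 20 members had a median of -0.21 in CD43-KO 3 and -0.45 in the other 4, where 2028 other genes had 0.11 and -0.08. The library's lowest depth and its muscle, fat and leukocyte markers went with this value, and their part in it was not tested.

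Rpl41, the shortest member and a very basic peptide, was at 2301, 2136, 2984 and 3322 CPM in Vec 1 to 4 and at 1722, 1904, 4316, 1975 and 2018 in CD43-KO 1 to 5. CD43-KO 3 was the highest tumour, and the other 4 were all below the lowest Vec tumour. Rpl38 was at 584, 475, 793 and 712 CPM in Vec tumours and at 480.5, 468, 1125, 536 and 558 in CD43-KO tumours. Rps29 was at 373, 371, 494 and 455 CPM in Vec tumours and at 304, 329, 732, 329 and 332 in CD43-KO tumours. Both had CD43-KO 3 as the highest tumour, and these 3 members were chosen for display after their values were seen. Summed over members, the ratio of the short class to the class over 600 bases was 0.157, 0.148, 0.188 and 0.151 in Vec tumours and 0.159, 0.154, 0.271, 0.155 and 0.164 in CD43-KO tumours. Vec 3 was the next highest after CD43-KO 3.

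**Figure D4:**
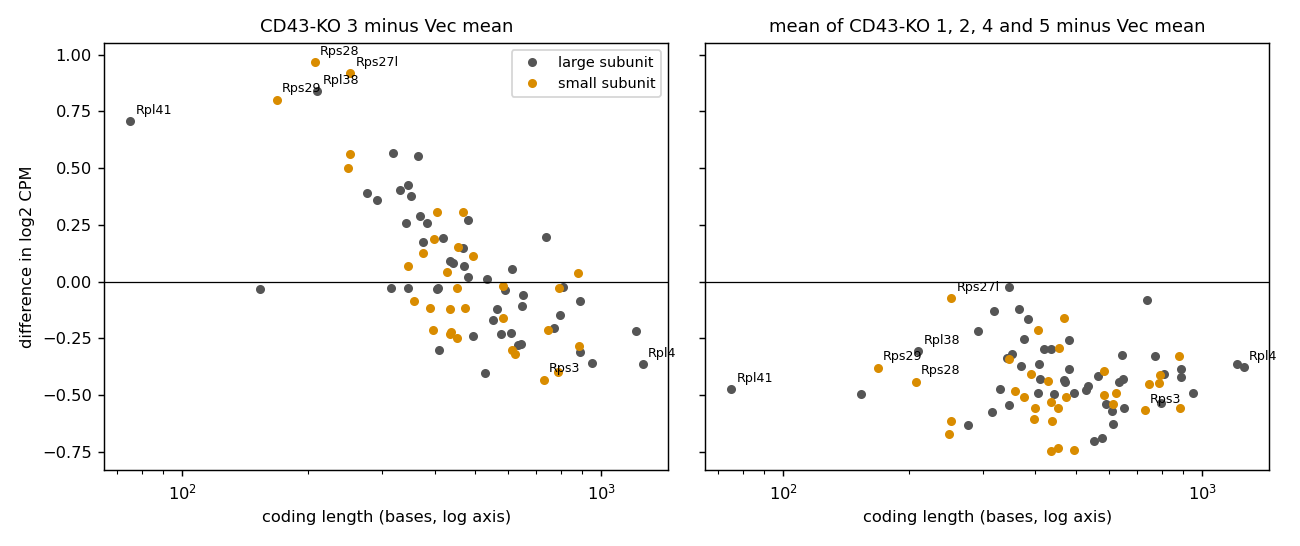
Log2 difference from the Vec mean against coding length (log axis), for each member of at least 10 CPM, in CD43-KO 3 and as the mean of the other 4 knockout tumours. The points of CD43-KO 3 slope down with length (Spearman -0.64 over 82 tested members), and those of the other 4 run from -0.74 (Rps15) to -0.02 (Rpl30) with little slope (Spearman -0.15).

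With CD43-KO 3 included, the tests split by length. Of the 24 members over 600 coding bases, 21 (87.5%) were lower at an unadjusted edgeR p under 0.05 and 13 had no overlap between groups. Of the 11 members of at most 300 bases, 1 was lower at that p and 0 had no overlap. Without CD43-KO 3, 22 of the 24 long members and 7 of the 11 short ones were lower at that p (10.6% of all genes), and 20 and 6 had no overlap (7.58% of all genes). The 6 short ones were Rpl37a, Rpl41, Rps21, Rps27, Rps28 and Rps29, and the median log2 fold change was then -0.46 in both classes. For scale, 190 other genes with a mean of at least 500 CPM had a median log2 fold change of -0.12, and 17.4% of them were lower at an unadjusted p under 0.05. Of 334 other genes with at most 600 coding bases and at least 100 CPM, 15.6% were lower at that p, with a median of -0.10.

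Levels of different members can be set side by side only per length. Per kilobase of coding sequence, Rpl41 was highest in both groups, at 35809 CPM per kilobase in Vec and 31828 in CD43-KO tumours, followed by Rpl39 at 9807 and 7408. The next 4 were the same genes in both groups but in another order. In Vec tumours they were Rps14 at 8948, Rpl13a at 8691, Rps12 at 8007 and Rplp1 at 7629.9. In CD43-KO tumours they were Rplp1 at 6605, Rpl13a at 6107, Rps14 at 5777 and Rps12 at 5535. The untranslated ends are not in this length, which raises the values of the shortest members most. At the other end, averaged over all 9 tumours, were the paralogs Rpl7l1 at 219 and Rpl22l1 at 274, and far below them Rpl39l at 9.69 and Rpl3l at 0.978 CPM per kilobase.

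Several members have a paralog that can take their place in the ribosome or has a role of its own. Rps27l, a target of p53, supplied 12.2%, 13.6%, 15.05% and 12.5% of the Rps27 and Rps27l counts in Vec 1 to 4 and 19.2%, 18.7%, 16.4%, 16.3% and 18.8% in CD43-KO 1 to 5. Every knockout tumour was above every Vec tumour, with means of 13.3% ± 1.31 (SD, n = 4) and 17.9% ± 1.40 (SD, n = 5). The Rps27l level itself was at 184, 167, 243 and 207 CPM in Vec tumours and 181, 186, 374, 180.5 and 207 in CD43-KO tumours. Rps27 was at 1327, 1059.8, 1372 and 1451 CPM in Vec tumours and at 761, 811, 1909.6, 924 and 890.5 in CD43-KO tumours. Apart from CD43-KO 3, the knockout tumours thus lay below every Vec tumour in Rps27 and inside the Vec range in Rps27l. The Rps27l log2 fold change was 0.17 ± 0.23 (SE, edgeR adjusted p = 0.728), and -0.092 without CD43-KO 3.

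Rpl7l1 supplied 8.41%, 8.91%, 8.11% and 8.18% of its pair with Rpl7 in Vec 1 to 4 and 11.03%, 10.6%, 9.66%, 9.49% and 10.1% in CD43-KO 1 to 5, again without overlap. Its level had means of 164 ± 21.8 and 160.3 ± 15.4 CPM, whereas Rpl7 had 1789.9 ± 280.2 and 1421 ± 195. Rpl22l1 supplied 7.81% to 8.85% of its pair with Rpl22 in Vec and 7.65% to 10.05% in CD43-KO tumours, and these ranges overlapped. Rpl22, needed for T cell development, had means of 1088 ± 212 and 1026 ± 162 CPM, and Rpl22l1 of 99.8 ± 24.0 and 101 ± 24.6. The Rpl22 log2 fold change was -0.08, near that of all genes. Rpl30, which also binds selenoprotein messenger RNAs, had means of 1171 ± 179.7 and 1227 ± 201 CPM and a log2 fold change of 0.07 ± 0.14 (SE), or -0.040 without CD43-KO 3.

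The paralogs of restricted tissues were at the bottom of the range. Rpl3l, the form of striated muscle, was at 0.505, 0.923, 0.521 and 0.406 CPM in Vec 1 to 4 and at 0.306, 0.755, 6.80, 0.187 and 0.338 in CD43-KO 1 to 5. The value of CD43-KO 3, the library with the muscle markers at 1768 CPM, gave the log2 fold change of 1.49 ± 1.03 (SE), which was -0.57 without that library. Its pair Rpl3, in contrast, had means of 2488 ± 424 and 1958 ± 103 CPM without overlap. Rpl39l, enriched in testis, was the one member higher at an unadjusted edgeR p under 0.05. It was at 0.978, 0.491, 1.46 and 1.09 CPM in Vec tumours and at 1.77, 2.42, 2.32, 1.94 and 0.862 in CD43-KO tumours. CD43-KO 5 lay below 3 of the Vec tumours, and the log2 fold change was 0.89 ± 0.38 (SE, edgeR adjusted p = 0.303). Its pair Rpl39, in the exit tunnel, had means of 1500.4 ± 278 and 1133 ± 198 CPM. Rps4l had means of 2.01 ± 0.577 and 2.67 ± 1.13 CPM, beside 2390.0 ± 495 and 1742 ± 127 for its X-linked pair Rps4x. Rpl10 had means of 2469 ± 390.3 and 1973 ± 69.0 CPM without overlap. Rpl10l and Rpl32l had 0 counts in every library, which allows up to 0.0416 to 0.0669 CPM depending on the library (3 counts, counting error only).

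**Figure D5:**
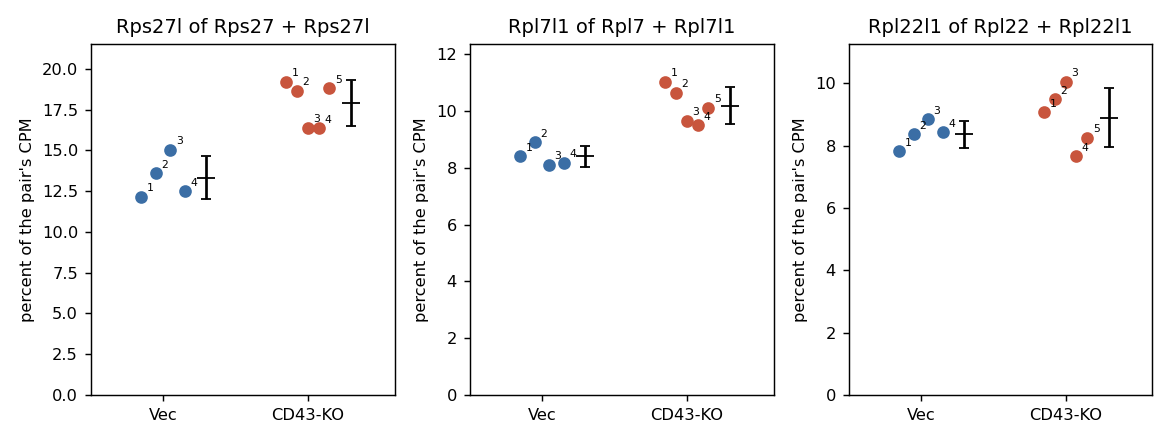
Share of Rps27l, Rpl7l1 and Rpl22l1 in the summed CPM of each pair, in percent, in each of the 9 tumours, with the group mean and SD. Knockout tumours lie above Vec tumours for Rps27l (16.3% to 19.2% against 12.2% to 15.05%) and for Rpl7l1 (9.49% to 11.03% against 8.11% to 8.91%).

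There were 5 members with a copy-suffixed row, 9 such rows in all, and their own values are uncertain. Rps18, Rps28, Rps10 and Rps4l each had a copy row within 5% of the level of the member, from 98.6% to 104% of it, and Rpl10a had one at 87.8%, so single reads may stand under several names. For Rpl10a the copy row had a log2 fold change of -0.42, and for Rps10 of -0.55. The 10 pseudogene rows of members were low, the highest at 18.3 CPM on average. Many members also have processed copies elsewhere in the genome, such as Rps27rt and Rpl37rt, and how the authors assigned reads between copies is not given in the sources used here.

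Ribosomal proteins outside the naming rule had lower means in the knockout tumours as well. Rack1, a scaffold on the small subunit, was at 2688, 2449, 2348 and 3646 CPM in Vec 1 to 4 and at 1657, 1758, 1630.3, 2027 and 1779.6 in CD43-KO 1 to 5, without overlap. Fau, whose product is cut into ubiquitin-like and ribosomal parts, was at 1458, 1307, 1376 and 2144 CPM in Vec tumours and at 842, 888, 1231, 956 and 841 in CD43-KO tumours, also without overlap. The log2 fold changes of Rack1 and Fau were -0.65 ± 0.14 and -0.72 ± 0.17 (SE). Their adjusted p were 0.150 and 0.175 in edgeR, and 0.00237 and 0.00760 in DESeq2. Of the 6 genes of this list, 3 were lower at an unadjusted p under 0.05 (7.63% of all genes) and 0 higher (7.75%), with a median of -0.43.

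Other messenger RNAs known for the same 5′ pyrimidine run were mostly lower in the knockout tumours. Of 15 listed genes, 14 had a log2 fold change below 0, against 46% of all genes, and the median was -0.39. At an unadjusted edgeR p under 0.05, 10 were lower (7.63% of all genes) and 0 were higher (7.75%). In 6 every knockout tumour lay below every Vec tumour (3.5% of all genes). DESeq2 and voom each called 7 of the 15 lower (2.02% and 2.04% of all genes) and 0 higher. The list holds Vim, which is also the main gene of the carcinoma markers above, and Nap1l1, Npm1 and Hnrnpa1, none of them a translation factor. Of the other 11 genes, a choice made after the values were seen, 8 were lower at that p and 5 had no overlap. Eef1a1, which carries aminoacyl-tRNA to the ribosome, was at 13315, 13483, 11614 and 18104 CPM in Vec 1 to 4 and at 9330.2, 9999.6, 9017, 10664 and 9278 in CD43-KO 1 to 5. No knockout tumour reached Vec 3, the lowest Vec tumour, and CD43-KO 3 was the lowest of all. Eif3h, an initiation factor subunit, had means of 1003 ± 194 and 631 ± 64.5 CPM and a log2 fold change of -0.67 ± 0.13 (SE). Its adjusted p was 0.140 in edgeR and 0.00120 in DESeq2. Pabpc1, Npm1 and Hnrnpa1, in the same list, had log2 fold changes of -0.08, 0.02 and -0.01.

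Genes that build or control ribosomes gave counts at an unadjusted p under 0.05 near the background, but most had a log2 fold change above 0. Of 30 ribosome assembly factors, 0 were lower (7.63% of all genes) and 3 higher (7.75% of all genes) at an unadjusted edgeR p under 0.05, with a median log2 fold change of 0.08. The log2 fold change was below 0 for 7 of the 30, against 46% of all genes. Ddx21, a nucleolar helicase, was at 131, 148, 142 and 137 CPM in Vec 1 to 4 and at 188, 186, 195, 174 and 199 in CD43-KO 1 to 5. All knockout tumours were above all Vec tumours, and the log2 fold change was 0.43 ± 0.08 (SE). The adjusted p was 0.135 in edgeR and 4.07e-05 in DESeq2. DESeq2 and voom each called 1 of the 30 factors higher (1.36% and 1.04% of all genes) and 0 lower. Polr1a, the largest subunit of the polymerase that makes ribosomal RNA, and Tcof1, its nucleolar partner, had log2 fold changes of 0.31 and 0.26.

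Of 17 tested regulators of ribosomal protein synthesis, 0 were lower (7.63% of all genes) and 2 higher (7.75%) at an unadjusted p under 0.05, counts that are near the background. Their median log2 fold change was 0.12, and 4 of the 17 were below 0, against 46% of all genes. Larp1 had means of 152 ± 18.6 and 186 ± 23.2 CPM and Larp4 of 114 ± 21.5 and 154 ± 21.4, with log2 fold changes of 0.29 ± 0.12 and 0.43 ± 0.14 (SE). In both the edgeR adjusted p was over the threshold, at 0.297 and 0.246. Myc had means of 136 ± 17.6 and 163 ± 29.1 CPM, a log2 fold change of 0.25 ± 0.15 (SE). Of 10 dedicated chaperones of ribosomal proteins, 1 was lower at that p and 0 higher, again beside 7.63% and 7.75% of all genes, with a median of -0.11. DESeq2 and voom called 0 of the regulators and 0 of the chaperones.

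Of 9 genes of the p53 checkpoint that free ribosomal proteins can switch on, 2 were lower (7.63% of all genes) and 2 higher (7.75%) at an unadjusted p under 0.05. Phlda3, a repressor of Akt, was at 183, 159, 138 and 201 CPM in Vec tumours and at 95.6, 96.0, 106, 103 and 131 in CD43-KO tumours, without overlap, with an edgeR adjusted p of 0.135. Bbc3, which promotes apoptosis, had means of 41.8 ± 2.28 and 32.6 ± 3.52 CPM, while Sesn2 and Zmat3 had log2 fold changes of 0.57 and 0.40. By these counts the list had no single direction, but the log2 fold change was below 0 for 2 of the 9, against 46% of all genes. The median was 0.11. In Phlda3 and Bbc3 every knockout tumour lay below every Vec tumour (3.5% of all genes). Their DESeq2 adjusted p were 0.00108 and 0.0333. DESeq2 and voom each called 2 of the 9 lower (2.02% and 2.04% of all genes) and 0 higher.

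Mitochondrial ribosomal proteins are coded in the nucleus but form a separate ribosome. Of 78, 8 (10.3%) were lower and 0 higher at an unadjusted edgeR p under 0.05, beside 7.63% and 7.75% of all genes, and 2 (2.56%) were lower without overlap, beside 3.5%. Both of these shares were near those of all genes, but the log2 fold change was below 0 for 64 of the 78, against 46% of all genes. Their median log2 fold change was -0.13, beside -0.36 for the cytosolic members and 0.03 for all genes. In CD43-KO 3 their median difference from Vec was 0.21 and in the other 4 knockout tumours -0.21, where all genes had 0.003 and 0.02. DESeq2 called 1 of the 78 lower (2.02% of all genes) and voom 2 (2.04%), and both called 0 higher.

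The genes outside the rule whose log2 level followed the summed member level most closely over the 9 tumours included Naca (Pearson 0.991), Pdcd2 (0.990) and the copy rows of Rpl10a (0.986) and Eif3i (0.986). Naca binds chains as they leave the ribosome, and Pdcd2 is a chaperone of Rps2. Naca had means of 747 ± 124 and 562 ± 110 CPM and a log2 fold change of -0.41 ± 0.16 (SE, edgeR adjusted p = 0.275).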

How the data were processed

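Whole-tumour RNA was extracted with TRIzol and made into libraries with the NEBNext Ultra kit, per the labels' protocols. The authors deposited 1 table of whole-number read counts per gene name for each of 9 tumours, unscaled per the file values. HISAT2 2.1.0, StringTie 1.3.5, DESeq2 and the build GRCm38 are named, with no role or order, per the submitters' processing notes. For the counting step, annotation and strand the setting is not given in the sources used here. A total of 26 names had become dates and stayed unnamed.

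Counts were analysed in R 4.3.3. Genes were kept by filterByExpr (minimum count 10, minimum total 15), scaled by TMM and tested with the quasi-likelihood F test of edgeR 4.0.16 on the group alone, with Benjamini-Hochberg adjustment over 18243 genes and a threshold of 0.05. CPM values are TMM-scaled, given as mean ± SD over tumours. A log2 fold change below 0 means lower in CD43-KO, and its SE is the log2 fold change over the square root of F. Single genes were also tested by an exact permutation over the 126 splits. DESeq2 1.42.0, voom of limma 3.58.1, total-count scaling, other filters and leaving out each tumour were alternatives. The script was tested on simulated data. The 36 pairs of libraries differed beyond sampling noise (lowest chi-square per degree of freedom 36.3). Coding lengths came from GENCODE M21, and coordinates and start sites from RefSeq GRCm38.p6. Tumours far from their group were found by Dixon's 95% critical values.

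The members and gene lists were chosen with earlier results of these data known. Genes named were the 5 most abundant members of each subunit, the 5 largest log2 fold changes each way with a mean of at least 1 CPM, the 10 smallest p-values, Rpsa and the stalk, and 7 paralog pairs. In other lists they were up to 4 with an unadjusted p under 0.05, and for likeness the 5 highest correlations. Some genes that this rule names are not reported here. Replicate numbers follow the order of deposition and link no tumours across groups.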

Additional observations from a re-analysis of the deposited data

Results flagged for a closer look

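A tumour far from the rest of its group was found in 15 of the 78 groups of values examined. Chance gives about 1 in 20 for a single group. Many of these values vary together over the same tumours, so the groups are not independent and the count cannot be set against that rate. Of the 15, 6 were of Vec 4 and 6 of CD43-KO 3. Each is a tumour whose gap to its nearest neighbour takes up most of the group's range.

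Vec 4 was far above the other 3 Vec tumours in Rplp0 (5535 CPM), Rpl8 (4018), Rpl3 (3123), Rps4x (3125), Rpl10 (3053) and Rpl7l1 (196.2 CPM). CD43-KO 3 was far above the other 4 knockout tumours in Rplp1 (3093 CPM), Rps27 (1910 CPM), Rps27l (374.4 CPM), Rpl22l1 (143.6 CPM) and Rpl3l (6.801 CPM). It was also the highest in the ratio of short to long members, at 0.271.

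Vec 3 was the highest of its group in the ratio of large to small subunit, at 1.43, and in Rpl22l1, at 135.8 CPM. CD43-KO 1 was the lowest of its group in Rpl10, at 1853 CPM. The other knockout tumours lay close together, at 1983 to 2021 CPM, so the flag rests on a small gap.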

How the results depend on the processing

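No paired analysis was possible because the labels give the groups no shared replicate numbers. No member passed the adjusted threshold with edgeR under any scaling, filter or left-out tumour, while DESeq2 and limma voom each called 18. The cause was not tested. Leaving out 1 tumour at a time, or CD43-KO 3 and Vec 4 together (an alternative chosen after seeing the data), gave 0 to 1 members higher at an unadjusted p under 0.05, 31 to 69 lower (5.54% to 10.6% of all genes), 18 to 57 lower without overlap (3.84% to 8.87% of all genes), 0 to 1 higher without overlap, and a difference in the subunit ratio of 0.058 to 0.072. Without both libraries, 65 were lower at that p (8.38% of all genes) and 57 lower without overlap (against 8.87% of all genes). The median log2 fold change of the members ran from -0.25 without Vec 4 to -0.46 without CD43-KO 3, and was -0.28 by total counts, where the median of all genes moved from 0.03 to 0.11.

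Among the named members, the log2 fold changes of 5 near 0, and of Rpl3l (1.49), changed sign. Members that were not named could change sign too, such as Rpl36a, at 0.018 in edgeR and -0.00080 with voom. Of the 83 tested members, 7 were above 0 in the main fit, 2 without CD43-KO 3 and 12 by total counts. Over left-out tumours Rpl7l1 ran from -0.096 to 0.061, Rpl3l from -0.71 to 1.79, Rpl22l1 from -0.20 to 0.19, Rpl30 from -0.040 to 0.15, Rpl22 from -0.24 to 0.049 and Rps27l from -0.092 to 0.27. Rpl7l1 was 0.060 by total counts, Rpl3l -0.59 with voom and Rpl22l1 -0.0010 with voom. Of the other single-gene values, 495 kept direction and side and 30 passed the threshold with DESeq2 or voom.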
